A study of Mus musculus with 3 samples.

Results

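The Angptl7 tenocytes are tendon cells of young mouse patellar tendon that carry transcripts of Scx together with at least 2 of the 4 genes Angptl7, Car9, Crabp1 and Ooep. They were chosen in a single-cell RNA library of patellar tendon cells from WT 2-week-old mice, among cell barcodes with at least 500 genes, at least 1000 UMIs (unique molecular identifiers, 1 per captured transcript) and at most 10% mitochondrial UMIs. Of 4964 such cells, 325 met the rule, which is 6.55% (exact binomial 95% interval 5.87 to 7.27%), out of 6588 cells in the whole series. They were set against 529 comparison tenocytes, the other 2-week cells with at least 3 UMIs of Tnmd and at least 1 of Scx. All 325 Angptl7 tenocytes also had at least 3 UMIs of Tnmd, so both groups passed the same tendon gate.

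The tendon was dissected from the hindlimb, digested with collagenase and profiled with droplet 3' libraries. The series holds 1 library of 2-week-old mice and 2 libraries of 20-week-old mice, all labelled WT. The number of animals behind a library is not given in the sources used here. With 1 library at 2 weeks, cells are not replicates and no test between the groups was made. The 2-week library held 5654 barcodes and 35556626 UMIs, and its 4964 filtered cells had a median of 6570 UMIs and 2213 genes. The 20-week libraries held 1886785 and 5849867 UMIs. The libraries shared 2, 3 and 0 barcodes in their 3 pairings. UMIs of EGFP and tdTomato, which are transgene features, were present in all 3 libraries although they are labelled WT, with 89 and 60 UMIs of EGFP and 931 and 1427 UMIs of tdTomato in the 20-week replicates 1 and 2. Levels are sums of UMIs over the cells of a group, with exact intervals that cover counting error only. Because the rule selected cells on 4 genes, the levels of those genes and of genes that go with them describe the selection and are not tested findings.

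Tendon fibroblasts, or tenocytes, deposit the aligned type I collagen fibrils of tendon. Scx encodes the transcription factor that marks the tendon lineage, and Tnmd encodes tenomodulin, a membrane protein of maturing tenocytes. Fibrils are nucleated and sized with minor collagens and small leucine-rich proteoglycans, and they are hydroxylated, trimmed and crosslinked by dedicated enzymes. In the weeks after birth the mouse patellar tendon changes from a cell-rich, growing tissue to a matrix-rich one.

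The 4 selecting genes have separate textbook roles. Angptl7 encodes a secreted angiopoietin-like protein known from the corneal stroma and the outflow tissue of the eye. Car9 encodes a membrane carbonic anhydrase that is a classic target of the hypoxia-inducible factors. Crabp1 encodes a cytosolic binding protein for retinoic acid. Ooep encodes an oocyte-expressed protein of the maternal complex in eggs. Angptl7 lies on chromosome 4 at 148495183-148500460 on the minus strand, inside the Mtor locus, and Car9 at 43506966-43513729 of the same chromosome on the plus strand. Crabp1 lies on chromosome 9 at 54764748-54773110 on the plus strand and Ooep at 78376109-78378725 of the same chromosome on the minus strand (mm10, GENCODE vM21). Mtor, which overlaps Angptl7 on the other strand, was at 12.8 CPM (UMIs of the gene per 1000000 UMIs of the group) in Angptl7 tenocytes and 9.92 CPM in comparison tenocytes.

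The promoters of the 4 selecting genes are shown because these genes chose the cells, and that of P4ha1 as an example of another window with the hypoxia response core of the Car9 window, picked after the search. They are RefSeq windows of 300 bases on GRCm38.p6 (250 before and 50 after the annotated start), written 5′ to 3′ on the gene's strand, with each ACGTG or its reverse complement CACGT in capitals.
Angptl7 promoter, chr4:148500413-148500712, minus strand: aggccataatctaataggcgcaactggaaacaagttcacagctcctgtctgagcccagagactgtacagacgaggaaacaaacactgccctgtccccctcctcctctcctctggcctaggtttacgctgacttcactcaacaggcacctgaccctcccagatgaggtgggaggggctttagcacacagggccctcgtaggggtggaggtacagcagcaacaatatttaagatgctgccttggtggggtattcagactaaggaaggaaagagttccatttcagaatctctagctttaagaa
Car9 promoter, chr4:43506776-43507075, plus strand: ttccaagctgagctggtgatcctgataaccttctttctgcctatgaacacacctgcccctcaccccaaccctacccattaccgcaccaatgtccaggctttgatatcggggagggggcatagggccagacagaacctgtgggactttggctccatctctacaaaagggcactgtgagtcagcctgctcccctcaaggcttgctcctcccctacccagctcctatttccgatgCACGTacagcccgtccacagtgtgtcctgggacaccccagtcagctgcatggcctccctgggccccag
Crabp1 promoter, chr9:54764498-54764797, plus strand: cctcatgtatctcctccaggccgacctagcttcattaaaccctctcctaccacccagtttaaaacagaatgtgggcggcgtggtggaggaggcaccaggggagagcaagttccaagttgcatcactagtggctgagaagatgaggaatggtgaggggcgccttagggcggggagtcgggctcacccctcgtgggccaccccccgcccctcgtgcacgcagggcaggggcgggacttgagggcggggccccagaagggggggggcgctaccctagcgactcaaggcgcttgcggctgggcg
Ooep promoter, chr9:78378539-78378838, minus strand: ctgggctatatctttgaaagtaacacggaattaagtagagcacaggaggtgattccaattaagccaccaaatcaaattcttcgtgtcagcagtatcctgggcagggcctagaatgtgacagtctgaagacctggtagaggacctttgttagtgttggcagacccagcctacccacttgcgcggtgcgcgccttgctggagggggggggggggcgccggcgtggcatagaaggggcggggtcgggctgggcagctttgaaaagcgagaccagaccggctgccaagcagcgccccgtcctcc
P4ha1 promoter, chr10:59323046-59323345, plus strand: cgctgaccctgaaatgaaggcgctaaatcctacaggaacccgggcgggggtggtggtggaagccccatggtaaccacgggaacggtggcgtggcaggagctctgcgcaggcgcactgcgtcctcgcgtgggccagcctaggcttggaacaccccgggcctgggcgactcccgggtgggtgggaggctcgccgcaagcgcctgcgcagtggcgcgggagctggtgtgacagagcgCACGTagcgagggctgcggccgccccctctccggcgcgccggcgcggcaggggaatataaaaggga
The core ACGTG, searched on both strands, was found in 19.6% of the 32851 promoter windows of this length. It was present in the Car9 window, 18 bases before the start, and in the P4ha1 window, 16 bases before the start, and was not found in the windows of Angptl7, Crabp1 and Ooep. Of the other windows searched, those of Col11a2, Cyp26a1 and Avp held it and those of Kera and Oxt did not. The E-box CANNTG, the letters that helix-loop-helix factors such as Scx bind, was found in 72.3% of all windows. It occurred 3 times in the Angptl7 window, 2 times in the Car9 window and 1 time in the Ooep window, and was not found in the windows of Crabp1 and P4ha1. None of these E-boxes overlapped the ACGTG of the same window. A match of letters is a description of the window and no evidence that a factor binds there.

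Angptl7 led the selecting genes in level. It was at 911 CPM (95% interval 882 to 942) in Angptl7 tenocytes and 43.8 CPM (37.5 to 50.8) in comparison tenocytes. Single Angptl7 tenocytes held from 0 to 100 Angptl7 UMIs with a median of 5, and comparison tenocytes from 0 to 23 with a median of 0. Crabp1 was at 265 CPM in Angptl7 tenocytes and 39.7 CPM in comparison tenocytes, and Ooep at 224 CPM in Angptl7 tenocytes and 40.4 CPM in comparison tenocytes. Car9 was the scarcest and the sharpest, with 419 UMIs (107 CPM) in Angptl7 tenocytes and 2 UMIs (0.509 CPM) in comparison tenocytes. All 4 genes were near absent from the 675 cells with at least 3 UMIs of Rgs5, a pericyte gene, and no Scx, at 0 to 0.625 CPM. These differences follow from the rule.

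Most Angptl7 tenocytes carried more markers than the rule needed. Exactly 2 markers were detected in 126 cells, 3 in 114 and all 4 in 85 (26.2%). The commonest set of 3 was Angptl7, Crabp1 and Ooep, in 66 cells, and Car9 and Crabp1 alone was the rarest set, in 2 cells. Outside the Scx gate the pairs were rare: 17 of the 2-week cells without an Scx UMI had at least 2 of the markers, 14 with exactly 2, 2 with 3 and 1 with all 4. Detection of several scarce transcripts depends on depth. Angptl7 tenocytes had a median of 11271 UMIs per cell (3042 to 39453) and comparison tenocytes 6892 (1347 to 32383). In Tnmd and Scx cells with 0, 1, 2, 3 and 4 markers the median was 6180.5, 7654, 8805, 11840.5 and 15057 UMIs. After each cell was thinned to 3000 UMIs, 160 cells still met the rule. Thinned shares given here leave out shallower cells, and so cover all 325 Angptl7 tenocytes, 492 of the 529 comparison tenocytes and 600 of the 675 Rgs5 cells. In cells of both groups with 5000 to 15000 UMIs, a range chosen after seeing the data, the 36 named genes past 2-fold all stayed past it.

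Each selecting gene was also read in cells that it did not choose. Among cells chosen by Scx and at least 2 of the other 3 markers, Angptl7 was at 919 CPM in 241 chosen cells and 178 CPM in the 613 other Tnmd and Scx cells, a 5.18-fold ratio (4.79 to 5.60, counting error). Car9, left out in the same way, was at 100.2 CPM in 309 chosen cells and 11.5 CPM in 545 others, or 8.75-fold (6.45 to 12.1). Crabp1 was at 256 CPM in 255 chosen cells and 76.9 CPM in 599 others (3.34-fold), and Ooep at 238 CPM in 243 chosen cells and 62.1 CPM in 611 others (3.83-fold). At 3000 UMIs per cell the share of cells with Angptl7 was 59.8% among those chosen without it and 15.6% among the others, and the share with Car9 was 17.5% and 1.18%. Each gene was thus higher in cells picked by the remaining 3, within this library. All cells chosen in this way are Angptl7 tenocytes by the full rule. The 4 genes were put in 1 rule with earlier results of these data known. These ratios therefore describe the selection and are no test of it.

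Clustering of all 2-week cells, made without the 4 markers, Scx and Tnmd, placed most Angptl7 tenocytes together. Of the 325 cells, 273 (84.0%) fell in 1 of 20 clusters, cluster 5, which also held 84 of the 529 comparison tenocytes (15.9%). Most of the remaining comparison tenocytes were in cluster 7, led by Col22a1, Ptx4 and Chodl (176 cells, 33.3%), cluster 1, led by Igfbp3, Myoc and Fst (99 cells), cluster 12 with 79 cells and cluster 4 with 56 cells, and the rest in smaller numbers elsewhere, such as 13 in cluster 14 and 11 in cluster 6. Among the 15 nearest neighbours of an Angptl7 tenocyte, a mean of 78.3% were Angptl7 tenocytes as well, against 15.9% for a comparison tenocyte and 0.483% for any other cell. The share of Tnmd and Scx cells in cluster 5 went up with the number of markers, at 7.36, 29.6, 66.7, 93.0 and 97.6% for 0 to 4 markers. Genes that go with the selecting genes shaped these clusters, so the grouping describes the cells and is no test.

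**Figure D1:**
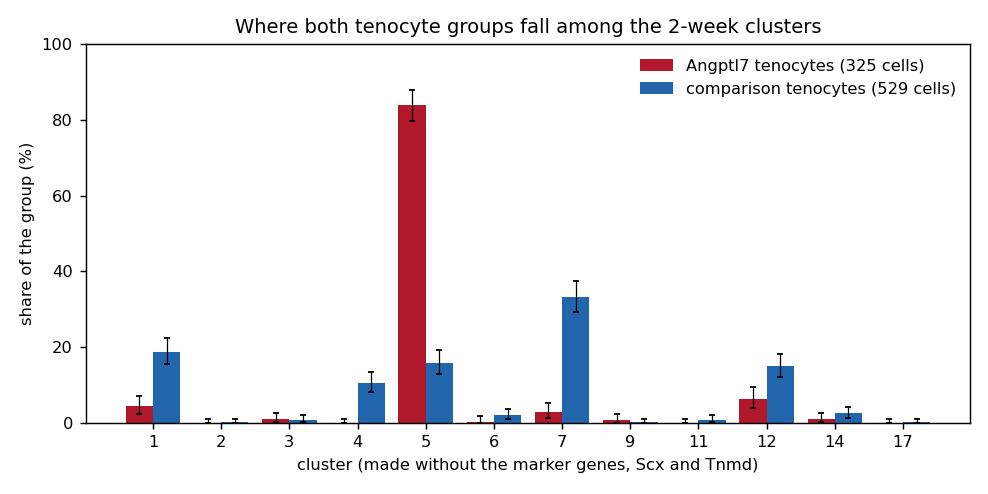
Share of each tenocyte group (y axis, %) in each cluster of 2-week cells that held any of them (x axis, cluster number); red bars are the 325 Angptl7 tenocytes, blue bars the 529 comparison tenocytes, and black lines exact binomial 95% intervals. Cluster 5 held 84.0% of the Angptl7 tenocytes and 15.9% of the comparison tenocytes, while cluster 7 held 33.3% of the comparison tenocytes.

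Of the 6 given markers, Angptl7, Car9 and Crabp1 chose the cells, and their levels follow from that. The other 3 are Kera, Col11a2 and Sema3b, with Kera the least different. Kera, the keratan sulfate proteoglycan keratocan of cornea and tendon (chromosome 10, 97606879-97613692), was at 1687 CPM in Angptl7 tenocytes and 1080 CPM in comparison tenocytes, 1.56-fold higher (log2 ratio 0.64). It was detected in 99.1% of Angptl7 tenocytes and 72.2% of comparison tenocytes. Among the cells of cluster 5 the order was the other way, with 1729 CPM in Angptl7 tenocytes and 1970 CPM in comparison tenocytes. Kera was thus detected in most cells of both groups, and the name Angptl7 tenocytes is used here without it. Scx was at 1346 CPM in Angptl7 tenocytes and 1312 CPM in comparison tenocytes, and Tnmd at 6978 and 7101 CPM in Angptl7 and comparison tenocytes. Both genes were part of the gates, so the tendon name rests on the rule and on the other tendon genes given further on. At 3000 UMIs per cell, Tnmd was found in 100% of Angptl7 tenocytes, 99.2% of comparison tenocytes and 23.8% of the Rgs5 cells. Without thinning, 38.5% of the Rgs5 cells held Tnmd, with up to 47 UMIs in a cell. The source of these Tnmd UMIs in Rgs5 cells was not tested.

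The other given markers separated the groups further. Col11a2, the alpha 2 chain of the fibril-nucleating type XI collagen (chromosome 17, 34039437-34066685), was at 934 CPM in Angptl7 tenocytes and 382 CPM in comparison tenocytes, 2.45-fold higher (2.30 to 2.60). Sema3b, a secreted class 3 semaphorin (chromosome 9, 107597674-107609229), was at 301 CPM in Angptl7 tenocytes and 97.2 CPM in comparison tenocytes, a log2 ratio of 1.54. At equal depth Col11a2 was found in 89.8% of Angptl7 tenocytes, 52.0% of comparison tenocytes and 1.00% of Rgs5 cells, and Sema3b in 57.2% of Angptl7 tenocytes, 20.3% of comparison tenocytes and 0.667% of Rgs5 cells. Within cluster 5 both were nearly level, at 985 and 931 CPM for Col11a2 and 323 and 274 CPM for Sema3b in Angptl7 and comparison tenocytes. The groups thus differed in these genes less within the cluster than across all tenocytes.

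Across all genes, 5392 had at least 20 CPM in 1 of the groups and at least 30 UMIs over both. Of these, 61 (1.13%) exceeded the comparison 2-fold or more in Angptl7 tenocytes, and 230 (4.27%) fell short of it 2-fold or more, on CPM + 10. The log2 ratio of all tested genes had a median of -0.24. Trimmed-mean (TMM) scaling moved that median to 0.05 and the counts to 128 higher and 135 lower. Log2 ratios below are on CPM + 10 and without this scaling, and are to be read against -0.24. Counts of list members past 2-fold are to be read against the 1.13% higher and 4.27% lower over all genes. A list with no higher gene is therefore near the share over all genes. Within cluster 5, which compares 273 Angptl7 tenocytes with 84 comparison tenocytes of like profile, the same threshold was passed upward by 32 genes and downward by 74.

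The genes farthest above the comparison, beside the selecting and given ones, included a receptor, enzymes and a hormone precursor. Fcgr3, a low-affinity receptor for IgG, was at 70.0 CPM in Angptl7 tenocytes and 6.87 CPM in comparison tenocytes (10.2-fold, 6.85 to 15.7). Summed over 8 blood-cell markers the level was 4.10 CPM in Angptl7 tenocytes and 17.8 CPM in comparison tenocytes, with 5 of the 8 at 0 in Angptl7 tenocytes. The related receptor gene Fcgr2b had 0 UMIs in both groups. Pla2g5, a secreted phospholipase A2, was at 60.7 CPM in Angptl7 tenocytes and 6.11 CPM in comparison tenocytes (9.95-fold). Hpgd, the dehydrogenase that inactivates prostaglandins, was at 45.4 CPM in Angptl7 tenocytes and 7.12 CPM in comparison tenocytes. Cyp26a1, which degrades retinoic acid, was at 32.0 CPM in Angptl7 tenocytes and 1.27 CPM in comparison tenocytes, or 125 and 5 UMIs (25.2-fold, 10.5 to 78.9). Cyp26a1 was seen in 16.6% of Angptl7 tenocytes and 0.756% of comparison tenocytes, and was not seen in Rgs5 cells.

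Oxt encodes the precursor of oxytocin, a peptide hormone of hypothalamic neurons. It had 325 UMIs (83.3 CPM) in Angptl7 tenocytes and 45 UMIs (11.4 CPM) in comparison tenocytes, a 7.28-fold ratio (5.32 to 10.2). Oxt was detected in 42.5% of Angptl7 tenocytes, 6.24% of comparison tenocytes and 0.148% of Rgs5 cells. Its neighbour Avp, the vasopressin precursor that lies 3566 bases away on chromosome 2 and on the other strand, was at 76.1 CPM in Angptl7 tenocytes and 23.9 CPM in comparison tenocytes. The other genes nearby were close to level: Mrps26 was at 77.9 and 71.0 CPM and Ptpra at 46.9 and 63.3 CPM in Angptl7 and comparison tenocytes.

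Thy1, a surface glycoprotein of fibroblasts, was at 145 CPM in Angptl7 tenocytes and 32.3 CPM in comparison tenocytes, and Dpp4, a surface peptidase, at 65.6 CPM in Angptl7 tenocytes and 12.5 CPM in comparison tenocytes. Vit, the matrix protein vitrin, was at 140 and 30.0 CPM, and Cpz, a secreted carboxypeptidase, at 409 and 120 CPM, in Angptl7 and comparison tenocytes. Slc7a11, the cystine importer, was at 35.4 and 4.32 CPM, and Chrdl1, a secreted BMP antagonist, at 66.9 and 17.3 CPM, in Angptl7 and comparison tenocytes. All of these were past 2-fold against all comparison tenocytes. Cgref1, Calhm5, Rhd and Cryzl2 were past 2-fold as well, with log2 ratios of at least 1.40. Within cluster 5 Thy1 was at 154 and 102 CPM and Dpp4 at 71.8 and 22.3 CPM, in Angptl7 and comparison tenocytes. Over the 22 alternative settings the lowest log2 ratio was 1.25 for Vit, 0.89 for Dpp4 and 0.78 for Chrdl1. It was 0.65 for Slc7a11, 0.55 for Thy1 and 0.47 for Cpz. For Calhm5, Rhd, Cryzl2 and Cgref1 it was 0.64, 0.59, 0.54 and 0.50. Thinned shares in Rgs5 cells were 0 for Fcgr3, Pla2g5, Oxt, Cyp26a1 and Dpp4, but 12.5% for Thy1 and 13.5% for Calhm5, against 28.3% and 26.8% in Angptl7 tenocytes. Calhm5 and Trappc3l overlap in the genome, and Trappc3l was at 1.54 CPM in Angptl7 tenocytes and 0.254 CPM in comparison tenocytes.

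**Figure D2:**
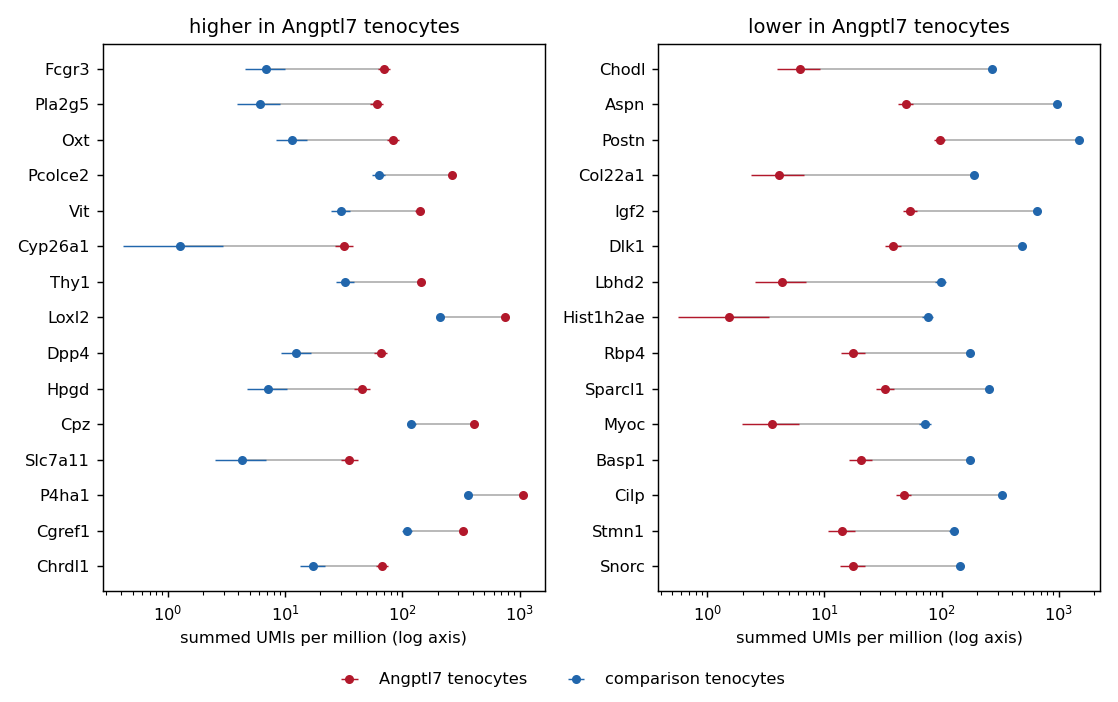
CPM on a log axis for the 15 named genes farthest above (left, without the selecting and given markers) and the 15 farthest below (right) the comparison; red points are Angptl7 tenocytes, blue points comparison tenocytes, and lines through points exact Poisson 95% intervals for counting error. Fcgr3 stood at 70.0 and 6.87 CPM and Chodl at 6.15 and 271 CPM in Angptl7 and comparison tenocytes.

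Among the genes farthest below the comparison were a lectin, matrix genes and imprinted genes. Chodl, the membrane lectin chondrolectin, was at 6.15 CPM in Angptl7 tenocytes and 271 CPM in comparison tenocytes, 44.0-fold lower, and Col22a1, a collagen of the muscle-tendon junction, at 4.10 CPM in Angptl7 tenocytes and 188 CPM in comparison tenocytes, 45.8-fold lower. Both lead cluster 7, where comparison tenocytes had 694 CPM of Chodl and 545 CPM of Col22a1. Aspn, the proteoglycan asporin, was at 49.2 CPM in Angptl7 tenocytes and 966 CPM in comparison tenocytes, and Postn, the matricellular protein periostin, at 96.4 CPM in Angptl7 tenocytes and 1487 CPM in comparison tenocytes. Igf2 and Dlk1, imprinted growth regulators, were at 53.8 and 38.4 CPM in Angptl7 tenocytes and 647 and 486 CPM in comparison tenocytes. Postn was detected in 17.2% of Angptl7 tenocytes and 60.1% of comparison tenocytes, and Aspn in 14.2% of Angptl7 tenocytes and 56.0% of comparison tenocytes. Rbp4, Sparcl1, Myoc, Basp1, Cilp, Stmn1 and Snorc had log2 ratios between -2.73 and -2.48, and Lbhd2 and Hist1h2ae were at -2.91 and -2.90. Few cells carried Hist1h2ae, 1.85% of Angptl7 tenocytes and 3.21% of comparison tenocytes, with up to 1 and 135 UMIs in a cell.

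Which comparison tenocytes are used decides several of these values. Within cluster 5 Aspn remained lower in Angptl7 tenocytes (13.4 CPM, against 91.2 CPM in comparison tenocytes), and so did Postn (13.7 CPM in Angptl7 tenocytes, against 91.2 CPM) and Rbp4 (7.15 CPM, against 46.5 CPM). Col22a1 was at 0.596 and 1.86 CPM and Igf2 at 16.7 and 27.9 CPM, in Angptl7 and comparison tenocytes of cluster 5. Dlk1 and Snorc turned round, at 16.7 and 3.72 CPM for Dlk1 and 13.1 and 1.86 CPM for Snorc in Angptl7 and comparison tenocytes of cluster 5. The comparison values are only 2 UMIs of Dlk1 and 1 UMI of Snorc, so these reversals rest on very few molecules. When the comparison was limited to clusters that each held at least 5% of the Angptl7 tenocytes, Aspn and Postn turned to log2 ratios of 0.055 and 0.92. The 163 comparison tenocytes left were 84 in cluster 5 and 79 in cluster 12, a cluster led by Spp1, Ibsp and Clec3a. Those of cluster 12 had 3.65 CPM of Aspn. All 325 Angptl7 tenocytes were kept, and those outside cluster 5 had 269 CPM of Aspn. Comparison tenocytes of cluster 7, which that limit leaves out, had 2201 CPM of Aspn and 2471 CPM of Postn. Of the 36 named genes past 2-fold, 12 stayed past it in the same direction within cluster 5.

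Several matrix genes were higher or lower by steps with the number of markers in a cell, across the threshold of the rule. Col1a1 was at 33349, 56999, 88889, 98462 and 108320 CPM in cells with 0, 1, 2, 3 and 4 markers. Loxl2 was at 192, 236, 541, 751 and 953 CPM, and P4ha1 at 261, 497, 863, 1144 and 1200 CPM. Postn ran the other way, at 1985, 791, 222, 71.9 and 8.58 CPM, as did Igf2 at 917, 271, 98.0, 47.7 and 20.3 CPM. In these genes, cells with 1 marker, just outside the rule, lay between cells with none and cells with 2, just inside it. The cells were ordered by the genes of the rule, so these steps describe the selection and are no test. The share of cells in the cluster that held most Angptl7 tenocytes also rose, from 7.36% with 0 markers to 97.6% with 4. Median depth rose from 6180.5 UMIs with 0 markers to 15057 UMIs with 4. The part of this changing mix of cells and of depth in the steps was not tested. Other genes did not follow such steps throughout. Kera peaked at 2 markers, with 1945 CPM, and was at 1530 CPM in cells with 4, and Fmod peaked at 3 markers with 4333 CPM and was at 4058 CPM in cells with 4. Col22a1 was at 0 CPM in cells with 3 markers and 1.56 CPM in cells with 4.

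**Figure D3:**
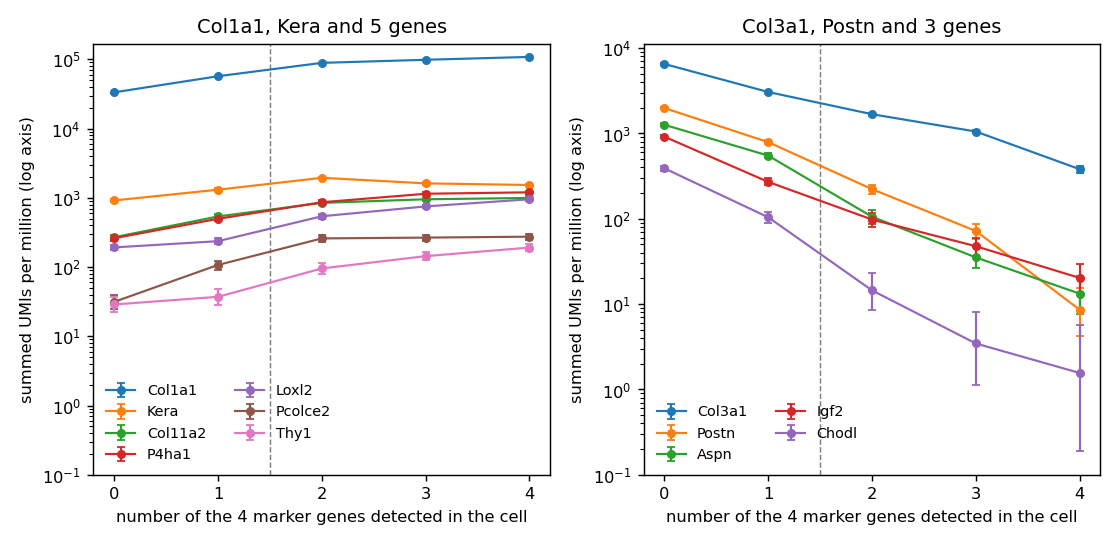
CPM on a log axis (y) in 2-week Scx and Tnmd cells with 0 to 4 of the marker genes detected (x); the dashed line is the threshold of the rule, with comparison tenocytes on its left and Angptl7 tenocytes on its right, and bars are exact Poisson 95% intervals. Col1a1 has 33349 CPM with 0 markers and 108320 CPM with 4, and Postn 1985 CPM with 0 and 8.58 CPM with 4.

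Type I collagen made up a larger share of the UMIs of Angptl7 tenocytes. Col1a1 was at 98823 CPM in Angptl7 tenocytes and 43219 CPM in comparison tenocytes, and Col1a2 at 68963 CPM in Angptl7 tenocytes and 29230 CPM in comparison tenocytes. A single Angptl7 tenocyte held a median of 1041 Col1a1 UMIs (71 to 4905), against 209 (7 to 1896) in a comparison tenocyte. These counts per cell are not adjusted for depth, which had medians of 11271 UMIs in Angptl7 tenocytes and 6892 UMIs in comparison tenocytes. Of 16 fibrillar and fibril-associated collagens 15 passed the filter on low values, with 3 at least 2-fold higher (Col11a2, Col1a2, Col1a1), 9 at least 2-fold lower and a median log2 ratio of -1.18. Among the 9 lower genes, Col3a1, the type III chain of young and healing matrix, was at 1022 CPM in Angptl7 tenocytes and 5081 CPM in comparison tenocytes. Col5a1 and Col5a2, which limit fibril width, had log2 ratios of -2.37 and -1.37, and Col14a1, a fibril-associated collagen, was at 108 CPM in Angptl7 tenocytes and 589 CPM in comparison tenocytes. Col22a1, Col5a3, Col9a1, Col9a2 and Col27a1 were the others.

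Within cluster 5 the collagens split. Col1a1 and Col1a2 were close, with log2 ratios of 0.21 and 0.31, whereas Col3a1, Col5a1 and Col14a1 stayed lower in Angptl7 tenocytes at -2.10, -1.66 and -2.74. Col3a1 was at 486 CPM in Angptl7 tenocytes of cluster 5 and 2111 CPM in its comparison tenocytes. The type I chains thus lay close between the groups of that cluster, and Col3a1, Col5a1 and Col14a1 did not. The other type V chains differed less there, with Col5a2 at -0.93 and Col5a3 at -0.09. Col5a3 was low in that cluster, at 13.4 CPM in Angptl7 tenocytes and 14.9 CPM in comparison tenocytes.

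**Figure D4:**
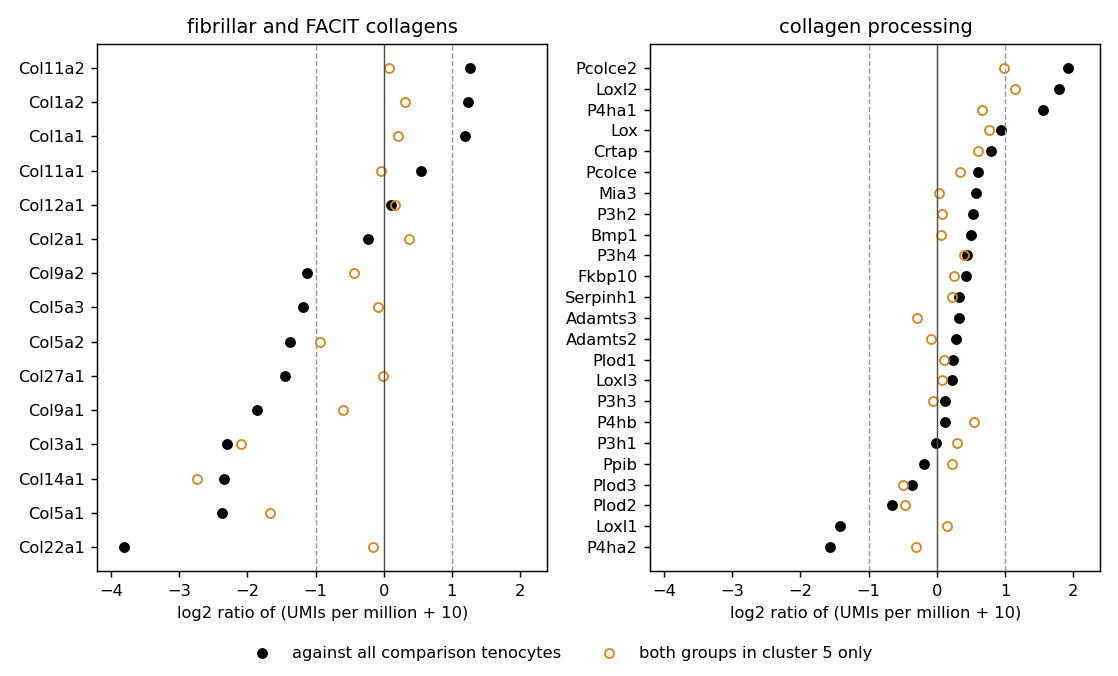
Log2 ratio of (CPM + 10), Angptl7 over comparison tenocytes (x), for collagens (left) and collagen processing genes (right) that passed the filter on low values; filled points use all comparison tenocytes, open points only the cells of cluster 5, and dashed lines mark 2-fold. Col1a1 has a ratio of 1.19 against all comparison tenocytes and 0.21 within cluster 5, and Col3a1 has -2.30 and -2.10.

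Genes that process collagen held higher and lower members. Of 27 such genes 24 passed the filter, 3 were at least 2-fold higher, 2 at least 2-fold lower and the median was 0.33. Pcolce2, an enhancer of the procollagen C-proteinase, was at 267 CPM in Angptl7 tenocytes and 63.1 CPM in comparison tenocytes. Loxl2, a lysyl oxidase that crosslinks collagen, was at 754 CPM in Angptl7 tenocytes and 211 CPM in comparison tenocytes. P4ha1, the catalytic subunit of prolyl 4-hydroxylase, was at 1078 CPM in Angptl7 tenocytes and 360 CPM in comparison tenocytes. P4ha2, another isoform of that subunit, was lower at 6.41 CPM in Angptl7 tenocytes and 38.4 CPM in comparison tenocytes, and Loxl1 was lower at 30.8 and 98.7 CPM in Angptl7 and comparison tenocytes. Lox, the founding crosslinking enzyme, was at 726 CPM in Angptl7 tenocytes and 375 CPM in comparison tenocytes, a log2 ratio of 0.93 that did not reach 2-fold. Loxl2 stayed at least 2-fold higher within cluster 5 (813 CPM in Angptl7 tenocytes and 363 CPM in comparison tenocytes), where Pcolce2 and P4ha1 were at log2 ratios of 0.99 and 0.66.

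Small leucine-rich proteoglycans coat fibrils and regulate their growth. Of 16 genes 11 passed the filter, none was at least 2-fold higher, 3 (Aspn, Lum, Prelp) were at least 2-fold lower and the median was -0.67. Fmod, fibromodulin, was at 4221 CPM in Angptl7 tenocytes and 2463 CPM in comparison tenocytes, and Dcn, decorin, at 9855 CPM in Angptl7 tenocytes and 5966 CPM in comparison tenocytes. Lum, lumican, was at 55.9 CPM in Angptl7 tenocytes and 230 CPM in comparison tenocytes. Of 11 measured genes for keratan sulfate synthesis, the sugar chain that Kera carries, 4 passed the filter and none was past 2-fold (median -0.43). A list of 7 measured genes known from the corneal stroma summed to 12548 CPM in Angptl7 tenocytes and 7365 CPM in comparison tenocytes. Dcn, which that list holds too, made up most of both sums. Angptl7, a selecting gene, was higher in the list and Lum was lower. Aldh3a1 and Ptgds were at 1.03 and 0.256 CPM in Angptl7 tenocytes and 3.82 and 0.509 CPM in comparison tenocytes.

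Tendon lineage genes were mostly level. Of 17 genes 16 passed the filter, with Cpxm2 higher (479 CPM in Angptl7 tenocytes and 220 CPM in comparison tenocytes), Chodl lower and a median of 0.07. Mkx, a tendon transcription factor, was at 153 and 101 CPM, and Thbs4, a thrombospondin of tendon, at 1325 and 1410 CPM, in Angptl7 and comparison tenocytes. The 8 tenocyte markers together summed to 16391 CPM in Angptl7 tenocytes and 14510 CPM in comparison tenocytes. Both lists hold the gate genes Scx and Tnmd, whose levels follow in part from the rule. Of those sums Tnmd made up 6978 and 7101 CPM and Scx 1346 and 1312 CPM, in Angptl7 and comparison tenocytes.

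Cartilage and mineral genes held members at least 2-fold lower, beside 4.27% lower and 1.13% higher over all tested genes. Of 22 cartilage and fibrocartilage genes 16 passed, none was higher and 7 (Cilp, Snorc, Col9a3, Col9a1, Col9a2, Hapln1, Cnmd) were lower, with a median of -0.81. Col2a1 and Acan were near level, at 428 and 132 CPM in Angptl7 tenocytes and 505 and 104 CPM in comparison tenocytes. Of 12 mineralization genes 5 passed and 3 were lower: Spp1, osteopontin, was at 247 and 939 CPM, Ibsp at 25.1 and 178 CPM, and Bglap, osteocalcin, at 0 and 162 UMIs, in Angptl7 and comparison tenocytes. A minority of cells carried these 3 genes. The 162 UMIs of Bglap came from 4 of the 529 comparison tenocytes (0.756%). Ibsp was detected in 7 Angptl7 tenocytes and 45 comparison tenocytes, and Spp1 in 26 and 112. In cluster 12 the 79 comparison tenocytes had 6472 CPM of Spp1. The 20 Angptl7 tenocytes of that cluster had 4746 CPM of Spp1 and 3652 CPM of Chad, and their Angptl7 level was 449 CPM, against 981 CPM in the Angptl7 tenocytes of cluster 5.

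Beside the selecting gene Car9, 1 gene of the hypoxia response was at least 2-fold higher on CPM + 10, and Slc16a3 and Higd1a were close to that threshold. Of 30 measured genes 21 passed, Car9 and P4ha1 were higher, P4ha2 was lower and the median was 0.29. Slc16a3, a lactate exporter, was at 25.9 CPM in Angptl7 tenocytes and 8.39 CPM in comparison tenocytes, and Higd1a at 616 CPM in Angptl7 tenocytes and 303 CPM in comparison tenocytes. Without the added 10 CPM these are ratios of 3.08 for Slc16a3 and 2.03 for Higd1a. Under TMM scaling both passed 2-fold, which made 4 higher genes in the list, the selecting gene Car9 among them. That count is to be read against the 2.45% of all tested genes that were higher under TMM scaling. In Angptl7 and comparison tenocytes, Vegfa was at 33.3 and 23.1 CPM, Ldha at 572 and 431 CPM and Pgk1 at 175 and 139 CPM, none past 2-fold. Among 16 carbonic anhydrase and pH genes 3 passed the filter (median 0.96), of which Car9, a selecting gene, was past 2-fold on CPM + 10. Slc16a3, which that list holds too, joined it under TMM scaling and within cluster 5. Ndufa4l2, a further hypoxia-induced gene that was looked at after its value was seen, was at 1562 CPM in Angptl7 tenocytes and 602 CPM in comparison tenocytes.

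Retinoic acid genes went both ways. Of 20 genes 11 passed the filter, with Crabp1 and Cyp26a1 higher, Rbp4 and Fabp5 lower and a median of -0.36. Cyp26b1, the related degrading enzyme, was at 14.6 CPM in Angptl7 tenocytes and 21.6 CPM in comparison tenocytes, and the receptor gene Rarg at 40.8 and 39.9 CPM in Angptl7 and comparison tenocytes. Of 7 angiopoietin-like genes 4 passed (median -0.39): Angptl7 was higher, Angptl4 was lower at 16.4 and 52.1 CPM, and Angptl1 was at 374 and 680 CPM, in Angptl7 and comparison tenocytes. Of 25 semaphorins and receptors 9 passed, with Sema3b higher, its receptor-family gene Nrp1 lower (7.43 CPM in Angptl7 tenocytes and 30.8 CPM in comparison tenocytes) and a median of 0.13.

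Signalling and growth lists had medians below -0.24. In the TGF-beta and BMP list 26 of 35 passed (median -0.44), with Chrdl1 and the receptor Bmpr1b higher and Fst, Gdf10, Ltbp2, Id3 and Tgfb1 lower; Id3, a BMP target, was at 545 CPM in Angptl7 tenocytes and 1203 CPM in comparison tenocytes. In the Wnt list 11 of 28 passed (median -0.98) and the secreted inhibitors Sfrp4, Sfrp2, Sfrp1, Frzb and Sfrp5 were lower, while the inhibitor Wif1 was at 502 CPM in Angptl7 tenocytes and 278 CPM in comparison tenocytes. No gene was past 2-fold among 13 hedgehog genes, of which 5 passed (median -0.61), and Spry1 alone was lower among 17 FGF genes, of which 9 passed (median -0.48). All 19 measured genes of the IGF axis and imprinted growth passed, none was higher and 6 (Igf2, Dlk1, H19, Mest, Igf2r, Igf1) were lower, with a median of -0.55. Igf1 was at 312 CPM in Angptl7 tenocytes and 748 CPM in comparison tenocytes, and H19 at 67.9 CPM in Angptl7 tenocytes and 374 CPM in comparison tenocytes.

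Other matrix and adhesion lists held at most 1 higher gene each and 2 to 5 lower ones. Of 21 matricellular genes 17 passed (median -0.14), with Sparc higher at 55032 CPM in Angptl7 tenocytes and 26446 CPM in comparison tenocytes, and Postn, Sparcl1, Smoc1 and Tnxb lower. Of 16 elastic fibre genes 14 passed (median -0.82) and Fbln2, Loxl1, Fbn2, Ltbp2 and Fbln5 were lower. Of 21 proteases and inhibitors 13 passed (median -0.36), with Mmp23 higher and Mmp2 and Mmp14 lower. Mmp23 was at 199 CPM in Angptl7 tenocytes and 79.4 CPM in comparison tenocytes, and Mmp2 at 120 CPM in Angptl7 tenocytes and 373 CPM in comparison tenocytes. Of 22 integrin and adhesion genes 13 passed (median -0.19), with the gap junction gene Gja1 higher (294 CPM in Angptl7 tenocytes and 132 CPM in comparison tenocytes) and Itga8 and Itga10 lower.

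Thy1, Dpp4 and Prg4 were the higher members of a list of 18 progenitor and sheath genes, of which 13 passed the filter (median -0.04). Prg4, lubricin of gliding surfaces, was at 732 CPM in Angptl7 tenocytes and 335 CPM in comparison tenocytes. The lower members were Clec3b, Tppp3, Cd34, Pdgfra and Cd44; Clec3b was at 83.6 and 273 CPM and Tppp3 at 30.5 and 109 CPM, in Angptl7 and comparison tenocytes. Cd55 and Cd248, surface markers of tendon progenitors, were at 31.0 and 20.2 CPM in Angptl7 tenocytes and 27.5 and 18.8 CPM in comparison tenocytes. The 8 markers of sheath fibroblasts summed to 330 CPM in Angptl7 tenocytes and 602 CPM in comparison tenocytes, with Dpp4 higher and Dpt, Clec3b and Cd34 lower.

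Cell cycle genes held members at least 2-fold lower, beside 4.27% lower and 1.13% higher over all tested genes. Of 26 genes 14 passed, none was higher and Stmn1, Ube2c, Cdk1, Birc5, Top2a, Cenpf and Hmgb2 were lower (median -1.07). Mki67 or Top2a was detected in 1.85% of Angptl7 tenocytes and 3.59% of comparison tenocytes. Of 23 measured secretory pathway genes 22 passed and none was past 2-fold (median -0.27); Creb3l1, a transcription factor of collagen-secreting cells, was at 248 CPM in Angptl7 tenocytes and 133 CPM in comparison tenocytes. Of 25 oxidant and antioxidant genes 20 passed (median -0.14), and the metallothioneins Mt1 and Mt2 were lower, with Mt1 at 159 CPM in Angptl7 tenocytes and 510 CPM in comparison tenocytes. Of 22 immediate early and heat shock genes 21 passed and none was past 2-fold (median -0.06). Under TMM scaling the medians of the retinoic acid, matricellular, integrin, progenitor, secretory, oxidant and immediate early lists changed sign, while those of the collagen, proteoglycan, cartilage, Wnt, IGF and cell cycle lists stayed below 0.

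Markers of most other cell types summed to low levels in Angptl7 tenocytes. Summed over 8 genes each, endothelial markers were at 1.79 CPM in Angptl7 tenocytes and 9.92 CPM in comparison tenocytes, and 6 of the 8 were at 0 in Angptl7 tenocytes. Schwann markers were at 4.36 CPM in Angptl7 tenocytes (4 at 0) and 12.2 CPM in comparison tenocytes, and muscle fibre markers at 7.43 CPM in Angptl7 tenocytes (3 at 0) and 28.0 CPM in comparison tenocytes. Myogenic markers, of which Chodl passed the filter alone, summed to 11.8 CPM in Angptl7 tenocytes and 286 CPM in comparison tenocytes. Chodl, which the tenocyte markers hold too, made up 6.15 and 271 CPM of these sums, in Angptl7 and comparison tenocytes. Epidermal markers were at 35.1 CPM in Angptl7 tenocytes (6 at 0) and 45.5 CPM in comparison tenocytes, and adipocyte markers, mostly Lpl, at 127 CPM in Angptl7 tenocytes (4 at 0) and 120 CPM in comparison tenocytes. Chondrocyte markers summed to 660 CPM in Angptl7 tenocytes and 823 CPM in comparison tenocytes, and osteogenic markers to 278 CPM in Angptl7 tenocytes and 1181 CPM in comparison tenocytes. Mural markers summed to 612 CPM in Angptl7 tenocytes and 1325 CPM in comparison tenocytes, with Acta2 at 540 and 1198 CPM and Rgs5 at 13.8 and 22.9 CPM in Angptl7 and comparison tenocytes. Synovial lining markers, a list of 6, were at 877 CPM in Angptl7 tenocytes and 415 CPM in comparison tenocytes, of which Prg4 made up the most. The part of these cell types in the differences was not tested.

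Angptl7 tenocytes also differed among themselves. In 325 cells thinned to 3000 UMIs, 1552 genes had a median variance over mean of 1.08, and 5% of them exceeded 2.72. Spp1 stood highest at 67.0, found in 6.15% of cells with up to 124 UMIs, followed by Col1a1 at 51.7. Col1a1 ranged from 159 UMIs at the 10th percentile to 458 at the 90th. Tagln, a contractile gene, was at 29.0 and found in 7.38% of cells, and Col3a1 was at 18.6. Scx was at 10.6 and Tnmd at 7.88, both above that limit, although they were used for the gates. Of the neighbours of the 273 Angptl7 tenocytes in cluster 5, 88.4% were Angptl7 tenocytes, against 37.6% for the 14 in cluster 1 and 24.0% for the 20 in cluster 12.

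At 20 weeks few cells met the rule. They were 11 of 609 cells (1.81%, 0.905 to 3.21%) in replicate 1, none with Tnmd of at least 3 UMIs, and 5 of 1015 cells (0.493%, 0.160 to 1.15%) in replicate 2, all 5 with it. The 20-week libraries were shallower, with medians of 2848 and 5132 UMIs per cell against 6570 in the 2-week library, so shares found by detection cannot be compared across ages. The 20-week Tnmd and Scx cells outside the rule, 13 and 37 cells in replicates 1 and 2, held Angptl7 at 1679 and 5661 CPM (57 and 915 UMIs), beside the 911 CPM of the 2-week Angptl7 tenocytes. Car9 and Crabp1 had 0 UMIs in both, and Ooep had 2 and 0. Kera was at 501 and 179 CPM there, and Oxt, Cyp26a1 and Fcgr3 had 0 UMIs in both. Myoc, among the lowest genes of the 2-week Angptl7 tenocytes at 3.59 CPM, was at 5037 and 1968 CPM. Age and library cannot be told apart with 1 library at 2 weeks.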

How the data were processed

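Single-cell RNA of mouse patellar tendon cells was measured in 3 droplet libraries, made with the Chromium Single Cell 3' v3.1 kit per the labels' protocols. The authors deposited UMI counts per gene and barcode for each library, made with Cell Ranger 6.1.2 on mm10 per the submitters' processing notes. The strand setting of the counting is not given in the sources used here. Barcodes below 500 genes or 1000 UMIs, or above 10% mitochondrial UMIs, were dropped, and the rest were summed per group and divided by the group's total to give CPM. Intervals are exact Poisson for levels, exact Clopper-Pearson for shares and conditional binomial for ratios, all at 95%.

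Log2 ratios were taken on CPM + 10 for genes with at least 20 CPM in 1 group and 30 UMIs over both. No p-value was computed, since the 2-week group is 1 library. No doublet caller was run. Cells above the 95th percentile of UMIs, and cells with UMIs of other cell types, were left out as alternatives instead. Clusters came from 2000 variable genes, 30 components and 15 neighbours at resolution 0.5. Named genes were the selecting and given genes, the 20 highest and 15 lowest log2 ratios, and members of the lists; 1 of the 20 is not reported here. The cells, the 26 gene lists and the 15 marker lists were chosen with earlier results of these data known. Gene positions were matched for 32235 of 32288 features. Python 3.11.15, scanpy 1.11.5, scipy 1.17.1 and edgeR 4.0.16 (for TMM factors) were used, and the ratio calculation was tested on simulated data. Of 22 alternative settings of the rule, the comparison cells, the cell and low-value filters, the scaling and the prior, the closing section gives those that moved a count by over 1.5 times and the range over the others.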

Additional observations from a re-analysis of the deposited data

Results flagged for a closer look

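UMIs of EGFP and tdTomato were found in the Angptl7 tenocytes, in a library whose label gives the genotype as WT. Both features were left out of the clustering and of the ranked genes above. They did count in the totals behind CPM and among the tested genes. EGFP was at 56.6 CPM (95% interval 49.4 to 64.6, counting error) in Angptl7 tenocytes, where 30.8% of cells held it, and at 74.0 CPM in comparison tenocytes, where 28.7% did. In Rgs5 cells EGFP was at 3.33 CPM. Over the 4110 2-week cells outside both tenocyte groups it was at 54.5 CPM, with 15.3% of cells holding it. The tdTomato feature was at 49.0 CPM (42.3 to 56.4) in Angptl7 tenocytes, 40.4 CPM in comparison tenocytes and 20.4 CPM in Rgs5 cells. The feature tdTomato-WPRE had 0 UMIs in these groups. What the features stand for was not tested.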

How the results depend on the processing

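No paired analysis was possible because there was 1 library at 2 weeks and no test was made. The count of higher genes, 61, became 97 against comparison tenocytes with none of the 4 markers, 124 with totals that leave out the 10 most abundant genes, 128 under TMM scaling, 23 with a prior of 50 CPM and 32 within cluster 5. The count of lower genes, 230, became 135 under TMM scaling, 380 with a prior of 1 CPM, 60 with a prior of 50 CPM, 74 within cluster 5, and 113 without comparison clusters that hold under 5% of the Angptl7 tenocytes. Under the other settings tried, which varied the rule, the cell filter, the comparison gate, deep, cycling and Y-linked cells, per-cell weighting, thinning and the low-value filter, the higher genes numbered 42 to 90 and the lower ones 186 to 329. Within cluster 5 Kera turned to -0.19, Dlk1 to 0.96 and Snorc to 0.96 on the log2 scale, the last 2 on 2 UMIs or fewer in comparison tenocytes. Leaving out the comparison clusters that hold under 5% of the Angptl7 tenocytes keeps only comparison tenocytes of clusters 5 and 12. Aspn then turned to 0.055, Postn to 0.92, Col22a1 to 0.37, Sparcl1 to 0.19, Basp1 to 0.20, Cilp to 0.64 and Stmn1 to 0.13. The cause of these turns was not tested. The restrictions to cluster 5, to other comparison clusters and to 5000 to 15000 UMIs were chosen after seeing the data. The rule found 199 cells with 3 or more markers and 160 after thinning. With 30 neighbours, 88.6% of Angptl7 tenocytes fell in 1 cluster. Cells with Xist alone could not be analysed, since there were none.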
